A study of Mus musculus with 2 samples.

Results

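The genes described here are the cytosolic translation initiation factors (symbols beginning Eif and a digit) and elongation factors (Eef and a digit), taken by symbol from a table of read counts of mouse γδ T cells. Of 24091 genes in the table, 64 matched, 54 of them with Eif symbols and 10 with Eef symbols. They comprise 57 factors and factor-modifying enzymes, 4 Eif2ak kinases that phosphorylate eIF2, and 3 Eif4ebp repressors that bind eIF4E. Genes were matched by name and not by a measured value, but the members and lists were chosen with earlier results of these data known.

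The table holds 2 RNA-seq libraries, both from total RNA of γδ T cells of mouse spleen. One library was labelled freshly isolated and the other IL-2 expanded. The antigen receptor of γδ T cells is built of a γ and a δ chain, and interleukin 2 (IL-2) is a growth factor of activated T cells. The protocols describe flow sorting, then activation by anti-CD3 on the plate with anti-CD28 in solution, and 100 U/ml recombinant mouse IL-2 over 5 days. Strain, genotype, age and the number of mice are not given in the sources used here. The same growth, treatment and extraction protocols, which speak of cultured cells, stand beside both libraries, so that only its own treatment label and the design text mark the freshly isolated library as uncultured. Under that reading, activation, culture and IL-2 differ together between the libraries and cannot be told apart.

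Each group held 1 library, so that no difference has a replicate check and no test between the groups was possible. Levels are given as CPM, counts per 1000000 of the library size after scaling, and differences as log2 folds or plain ratios of expanded over freshly isolated. Intervals in parentheses are exact 95% intervals of a ratio of counts. They cover counting error only, and without molecular identifiers several reads can come from 1 molecule. Total counts were 20379385 (freshly isolated) and 22204099 (expanded), and 1 count equalled 0.0465 and 0.0476 CPM. The CD3 chain genes, which define T cells, had a summed level of 2231 CPM in the freshly isolated and 2094 CPM in the expanded library over 4 genes. Of these, Cd247 was furthest down (447 and 243 CPM). Most markers of other spleen cells differed far more. Over 7 B cell and plasma cell markers the sum was 911 and 3.71 CPM, with 4 of the 7 at 0 counts in the expanded library, namely Cd79a, Jchain, Ms4a1 and Pax5. Nearly all of the expanded sum was Cd79b (32.9 and 3.62 CPM). Over 8 macrophage markers the sum was 810 and 20.9 CPM, with Cybb, Sirpa, Slc40a1 and Vcam1 at 0 counts in the expanded library. Cd68 (38.3 and 20.7 CPM) made up nearly all of that expanded sum and was less than 2-fold lower. The 3 erythroid markers stood at 68.2 CPM against 0 counts. The 10 immediate early genes summed to 17631 and 741 CPM, 9 of them being lower after expansion by 2-fold or more. Of all 11715 genes averaging 1 CPM or more, 25.0% were. Fosb (3101 and 0.666 CPM) and Fos (2237 and 3.23 CPM) were furthest down, and Egr1 (388 and 297 CPM) and Ier2 (518 and 84.2 CPM) nearest to equal. The part of these other cells and of handling in the values below was not tested. In bulk RNA, fewer cells of a type and less RNA per cell cannot be told apart.

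Translation initiation brings the small ribosomal subunit, with initiator tRNA carried by eIF2, to the capped end of an mRNA held by eIF4F, and eIF3 bridges the subunit and the mRNA. Scanning to the start codon depends on eIF1, eIF1A and eIF5, and eIF5B joins the large subunit. Elongation then cycles between eEF1, which delivers aminoacyl-tRNA, and eEF2, which moves the ribosome along. As background, resting T cells make little protein and raise the synthesis of translation machinery when they are activated.

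Most of the factor genes stood higher in the expanded library, more of them by less than 2-fold than by more. Of the 64 genes, 61 averaged 1 CPM or more and were compared. Higher by 2-fold or more were 24 of the 61 (39.3%), where 22.4% of all 11715 genes compared were. At least 2-fold lower were 2 of the 61 (3.28%), where 25.0% of all genes were, and the other 35 lay within 2-fold (57.4%, against 52.6% of all genes). Any higher level, whatever its size, was seen for 54 of the 61 (88.5%) and for 51.2% of all genes. The median log2 fold was 0.81, beside 0.04 over all genes compared. With the kinases and repressors set apart, 21 of 55 genes (38.2%) were at least 2-fold higher and 2 (3.64%) at least 2-fold lower. The median of these 55 was also 0.81. The whole family took 1.87% of all counts in the freshly isolated library (1.87 to 1.88) and 2.77% in the expanded library (2.76 to 2.78).

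At least 4-fold higher were 4 of the 61, namely Eif1ax, Eif2s1, Eef1e1 and the repressor Eif4ebp1, where 8.92% of all genes were. Eif2s1 and Eef1e1 fell short of 4-fold under other scalings, with log2 folds of 1.88 and 1.86 by total count. Only Eif4a2 was at least 4-fold lower, where 13.5% of all genes were. The counting interval of the ratio lay above 1 for 54 genes, below 1 for 5 and held 1 for 2, Eif2s3y and Eef2kmt. The lowest count of a compared member was 136, and counting error was small for most members. The spread between samples of a group is unknown. Close to the 2-fold line on its upper side were Eif4h at a log2 fold of 1.01, the kinase Eif2ak2 at 1.01 and Eef1g at 1.02, and just under it were Eif1ad at 0.96, Eef2 at 0.88 and Eif3i at 0.88.

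**Figure D1:**
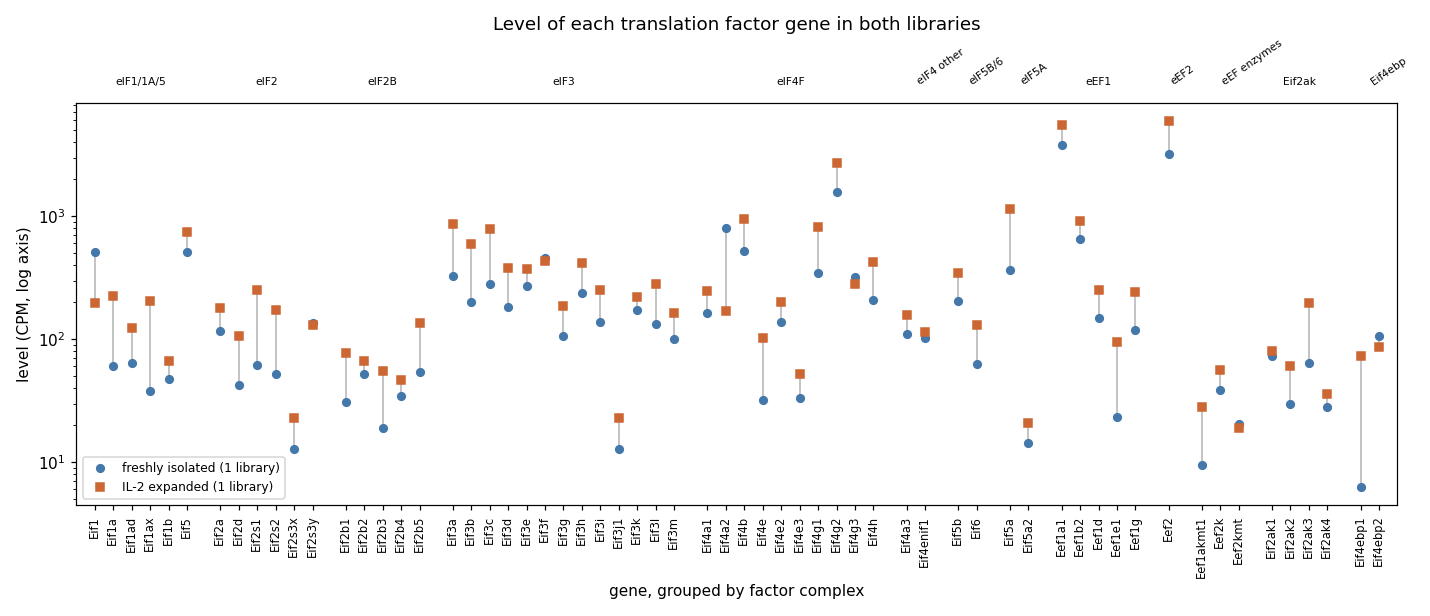
Level of each of 61 translation factor genes in CPM (log axis) in the freshly isolated library (circles) and the expanded library (squares), 1 library each, grouped by factor complex. The squares lie above the circles for 54 genes, and Eif4a2 and Eif1 show the largest gaps in the other direction.

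The remaining 3 of the 64 genes averaged less than 1 CPM. Eef1a2, the eEF1A form of muscle and neurons, and Eif4e1b, an eIF4E relative of the germ line, had 0 counts in both libraries, which allows up to 0.139 CPM in the freshly isolated and 0.143 CPM in the expanded library (3 counts). Eif4ebp3, a further eIF4E repressor, had 22 and 2 counts (1.02 and 0.0951 CPM), a ratio of 0.0931 (0.0106 to 0.379). Its deposited span lies inside that of Ankhd1 on the same strand, with 3934 and 2749 counts, so that the assignment of its few reads is uncertain.

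Set beside other parts of the translation apparatus, the factor genes lay between the ribosomal proteins and the tRNA-charging enzymes. The median log2 fold of 81 cytosolic ribosomal protein genes was -0.05. At least 2-fold higher were 3 (3.70%, beside 22.4% of all genes), and at least 2-fold lower were 19 (23.5%, near the 25.0% of all genes). Of the 3 higher ones, Rps27l and Rpl7l1 (63.7 and 146 CPM) are paralogue genes taken in by symbol. The 19 lower ones were all of low level, Rps12 being the highest of them at 95.4 and 21.7 CPM, and the summed CPM of the 81 genes was 1.13-fold higher. Many ribosomal protein genes have near-identical copies, and the part of shared reads in these values was not tested. The furthest apart were the paralogue Rps27l (13.2 and 157 CPM) and Rpl41 (86.5 and 211 CPM) upwards, and Rps27 (26.2 and 1.52 CPM) and Rps13 (18.6 and 1.95 CPM) downwards. The median was 1.76 for 22 genes of cytosolic aminoacyl-tRNA synthetases and their scaffold proteins. Of these, 19 (86.4%) were at least 2-fold higher, beside 22.4% of all genes, and none lower by that much. Aars (56.9 and 445 CPM) and Iars (74.2 and 361 CPM) stood highest in fold, and Vars (277 and 304 CPM) and Qars (161 and 228 CPM) lowest. The differences between the 3 groups of genes were not tested.

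**Figure D2:**
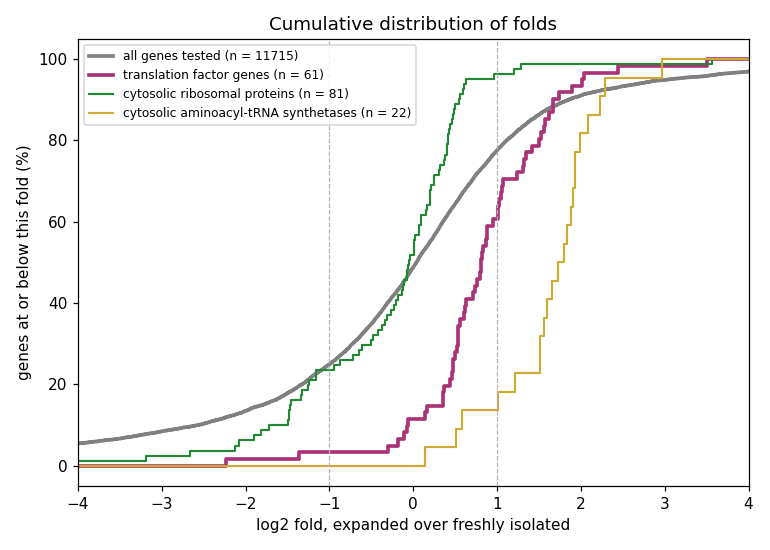
Cumulative share of genes (vertical axis, %) at or below a given log2 fold, expanded over freshly isolated (horizontal axis), for all 11715 genes compared, 61 translation factor genes, 81 ribosomal protein genes and 22 aminoacyl-tRNA synthetase genes. The factor curve crosses 50% at 0.81, between the ribosomal proteins at -0.05 and the synthetases at 1.76, and dashed lines mark 2-fold.

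The sequences around the annotated starts were searched for motifs because many members were higher together. Windows of 250 bases before and 50 bases after the start, from RefSeq on build GRCm38.p6, were at hand for 50 of the 64 genes (65 windows). The 14 genes not searched were Eif4ebp1, Eif4ebp3, Eif1a, Eif2b3, Eif3e, Eif3h, Eif3i, Eif4e1b, Eif4e3, Eif4g2, Eif6, Eef1d, Eef1g and Eef1akmt1. The E-box CACGTG, which reads the same on both strands and is the element bound by MYC with MAX, was found for 12 of the 50 genes (24.0%), beside 11.9% of 9194 compared genes with a window and 8.09% of all 27025 genes with a window. A selection at cap-binding, eIF3, eIF5A and elongation genes whose values follow is shown, the E-box in capitals with 12 bases on each side, and the distance is counted from the RefSeq start whose window holds it. For most genes shown this start is the 5′ end of the deposited span. The Eif4e E-boxes belong to a start that lies 1077 bases inside that span and the Eif5a E-box to one 1328 bases inside it. Eif5a has a further E-box before another inner start, and Eif4g1 one just after its start. The other members with an E-box were Eif4h, Eif5a2, Eif3k, Eif1b and Eef2k.
Eif4e, first E-box (chr3:138527028-138527057, plus strand, 228 bases before the inner start): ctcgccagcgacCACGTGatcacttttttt
Eif4e, second E-box (chr3:138527192-138527221, plus strand, 64 bases before the inner start): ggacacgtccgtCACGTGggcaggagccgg
Eif4g1, first E-box (chr16:20672661-20672690, plus strand, 54 bases before the start): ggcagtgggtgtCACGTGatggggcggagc
Eif4a1 (chr11:69672595-69672624, minus strand, 189 bases before the start): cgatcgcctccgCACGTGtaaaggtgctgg
Eif3a (chr19:60790654-60790683, minus strand, from base 23 of the transcribed part): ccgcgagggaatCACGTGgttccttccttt
Eif3f (chr7:108934335-108934364, plus strand, 68 bases before the start): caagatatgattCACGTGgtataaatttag
Eif5a (chr11:69920791-69920820, minus strand, 178 bases before an inner start): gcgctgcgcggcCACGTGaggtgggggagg
Eef2 (chr10:81176576-81176605, plus strand, 43 bases before the start): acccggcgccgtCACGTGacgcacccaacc

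Members with and without an E-box had close medians. The median log2 fold was 0.74 over the 12 genes with one (5 of them at least 2-fold higher) and 0.73 over 37 compared genes without one (13 at least 2-fold higher). Eif4a2 and Eif1, the genes lower by at least 2-fold, had no E-box in their windows. The core of the ATF4 element, TTGCATCA on either strand, was in none of the 50 members' windows and in 0.772% of those of compared genes. With so low a share, its absence from 50 genes says little. Eif4ebp1, the member furthest up, had no window and was not searched.

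A start with C followed by at least 4 pyrimidines, the form of the terminal oligopyrimidine tract through which mTORC1 controls translation of many ribosomal and elongation factor mRNAs, stood at the annotated first base of 2 of the 50 genes (4.0%), beside 2.99% of compared genes with a window. Both are shown with 10 bases before and 20 from the start, the run in capitals. The annotated first base may not be the one used in these cells, and other starts were not searched.
Eif3f (chr7:108934405-108934434, plus strand): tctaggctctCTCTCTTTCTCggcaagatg
Eif2s3x (chrX:94212632-94212661, minus strand): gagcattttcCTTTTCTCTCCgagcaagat
These 2 genes had log2 folds of -0.07 and 0.82. Matches of letters are descriptions of these windows and do not show binding or use.

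Among the factors that set the start codon, the genes for eIF1A were higher in the expanded library and the gene for eIF1 was lower. Eif1ax (chromosome X, 159372195 to 159385699, build GRCm38), the X-linked eIF1A gene, stood at 37.8 CPM before and 205 CPM after expansion, 5.44-fold higher (5.04 to 5.87). Eif1a, its autosomal partner, stood at 60.7 and 226 CPM, 3.72-fold higher (3.50 to 3.96). Their summed level was 4.38-fold higher. Eif1 (chromosome 11, 100319949 to 100322099), which guards against starting at the wrong codon, went the other way, from 510 to 199 CPM, 2.57-fold lower (2.48 to 2.66). Its relative Eif1b, at 47.9 and 66.0 CPM, was 1.38-fold higher (1.27 to 1.50). The share of Eif1 in their summed CPM was 91.4% and 75.1%, an uncertain value since 31.6% of the sequence windows of Eif1 (50 bases each) also occurred in transcripts of other genes and none of those of Eif1b. Eif5, which triggers GTP hydrolysis on eIF2, stood at 514 and 742 CPM (ratio 1.44), and Eif1ad, an eIF1A-related protein, at 63.6 and 123 CPM (1.94).

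All eIF2 genes but one were higher in the expanded library. Eif2s1 (chromosome 12, 78862072 to 78887010), the α subunit that the stress kinases phosphorylate, stood at 61.6 and 253 CPM, 4.10-fold higher (3.86 to 4.36). The β subunit Eif2s2 stood at 51.8 and 172 CPM, 3.33-fold higher (3.11 to 3.56). The γ subunit has an X-linked and a Y-linked gene, and these differed from the other subunits. Eif2s3y was at 135 and 130 CPM, a ratio of 0.959 (0.909 to 1.01), and Eif2s3x at 12.9 and 22.7 CPM, a ratio of 1.77 (1.52 to 2.06). Summed, the γ subunit genes stood at 148 and 152 CPM, a ratio of 1.03. Of windows of 50 bases along the longest GENCODE transcript, 36.2% of those of Eif2s3x and 27.8% of those of Eif2s2 also occurred in transcripts of other genes, against none of Eif2s3y, so that the level of Eif2s3x and the makeup of that sum are uncertain. Of the alternative initiator tRNA carriers, Eif2d was 2.54-fold higher (42.1 and 107 CPM) and Eif2a 1.53-fold higher (117 and 179 CPM). The deposited span of Eif2d overlaps Rassf5 on the other strand (9320 and 4640 counts), and the use of strand in counting was not stated.

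The complex eIF2B reloads eIF2 with GTP and is the one that phosphorylated eIF2 blocks. Of its 5 subunit genes, 3 (60%) were at least 2-fold higher, beside 22.4% of all genes, and the median log2 fold was 1.31. Eif2b3 (γ) stood at 19.0 and 55.1 CPM (ratio 2.89), Eif2b5 (ε, the catalytic subunit) at 54.3 and 136 CPM (2.50), and Eif2b1 (α) at 31.0 and 77.0 CPM (2.49). The β and δ subunit genes were nearer to equal, with Eif2b2 at 51.8 and 66.4 CPM (1.28) and Eif2b4 at 34.6 and 46.9 CPM (1.36). Per kb of the gene length given in the table, Eif2s1 was 1.08 times the mean of the 5 eIF2B genes in the freshly isolated library and 2.37 times in the expanded library.

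The kinases that phosphorylate eIF2 each answer to a stress, and all 4 had higher levels in the expanded library under the scaling used. Eif2ak3 (PERK, the kinase of endoplasmic reticulum stress) stood at 64.2 and 197 CPM, 3.07-fold higher (2.89 to 3.26). Eif2ak2 (PKR, which senses double-stranded RNA) stood at 29.9 and 60.6 CPM, 2.02-fold (1.84 to 2.23), with a log2 fold of 0.86 by total count. Eif2ak4 (GCN2, which senses uncharged tRNA) had 27.9 and 35.7 CPM, 1.28-fold (1.15 to 1.43). Eif2ak1 (HRI, the haem-regulated kinase) had 72.6 and 79.8 CPM, 1.10-fold (1.03 to 1.18), and scaling by total count turned its log2 fold from 0.14 to -0.02. Eif2ak1 overlaps Aimp2 on the other strand.

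Of 11 genes of the eIF2 stress pathway (median 0.43), 4 (36.4%) were higher and 2 (18.2%) lower by 2-fold or more, beside 22.4% and 25.0% of all genes. By any amount, 7 were higher and 4 lower. Furthest up were 2 genes downstream of ATF4, the asparagine synthetase gene Asns (2.37 and 307 CPM) and the pseudokinase Trib3 (1.30 and 88.7 CPM). Atf4 itself (712 and 563 CPM) and Ddit3 (41.3 and 33.3 CPM) were lower by less than 2-fold. Furthest down were Ppp1r15a, the inducible subunit that leads eIF2 to its phosphatase (1055 and 40.4 CPM), and Impact, an inhibitor of GCN2 (88.0 and 40.7 CPM). Immediate early genes were also lower in the expanded library, with 9 of 10 at least 2-fold lower beside 25.0% of all genes. Their part in the level of Ppp1r15a was not tested. Transcript levels do not measure phosphorylation of eIF2.

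Of the 13 genes of eIF3, the largest initiation factor, 12 were higher after expansion by any amount and 5 by 2-fold or more (median 0.83). These shares were 92.3% and 38.5%, beside 51.2% and 22.4% of all genes. The 3 large subunits stood together at the top. Eif3b was at 200 and 595 CPM, 2.98-fold higher (2.88 to 3.09). Eif3c was at 280 and 791 CPM, 2.82-fold higher (2.74 to 2.91), and Eif3a at 325 and 869 CPM, 2.67-fold higher (2.60 to 2.75). Next came Eif3l (134 and 282 CPM, ratio 2.11) and the cap-contacting subunit Eif3d (182 and 378 CPM, ratio 2.08). When libraries were scaled by total count their log2 folds were 0.92 and 0.90, short of 2-fold.

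The lowest ratio in eIF3 belonged to Eif3f, at 454 and 432 CPM, a ratio of 0.952 (0.925 to 0.979). Eif3f and Eif3h carry the MPN domains of the complex, and Eif3h differed from Eif3f, at 239 and 417 CPM (1.75). Eif3k (172 and 221 CPM, 1.29) and Eif3e (269 and 373 CPM, 1.39) also lay low. Between these and the large subunits were Eif3m (1.64), Eif3g (1.74), Eif3j1 (1.78) and Eif3i (1.84). Within the octamer of PCI and MPN subunits (a, c, e, f, h, k, l and m) the log2 folds thus ran from -0.07 to 1.50, and the b, g and i module from 0.80 to 1.58.

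Per kb of deposited length, the eIF3 genes covered a wide span of levels, from 5.31 CPM per kb for Eif3j1 to 303 for Eif3f in the freshly isolated library, and from 9.47 for Eif3j1 to 342 for Eif3h in the expanded library. Near-identical copies limit several of these levels. The share of windows found in other genes' transcripts was 39.8% for Eif3j1, chiefly through Eif3j2. It was 37.3% for Eif3m, 26.2% for Eif3h and 22.0% for Eif3e. Whether reads from such windows were counted is not given in the sources used here, and the levels of these genes are uncertain.

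**Figure D3:**
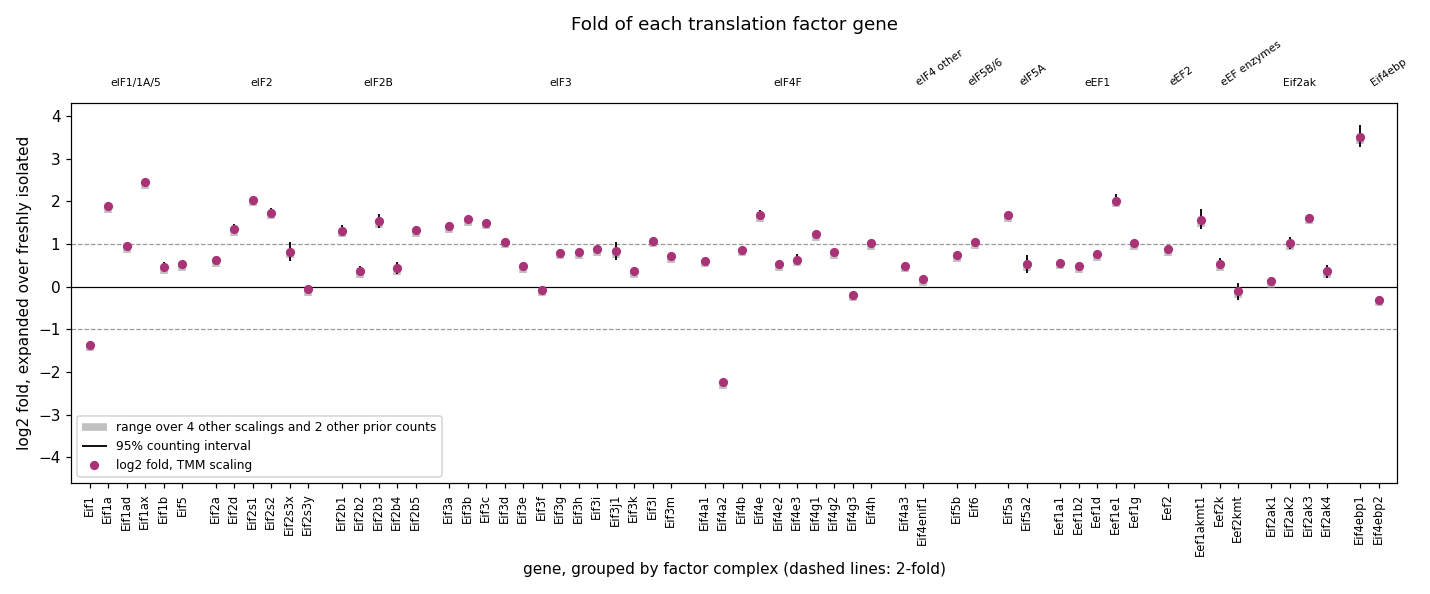
Log2 fold, expanded over freshly isolated (vertical axis), of each of 61 translation factor genes by complex, with the 95% counting interval (black line) and the range over 4 other scalings and 2 other prior counts (grey bar), and dashed lines at 2-fold. Eif4ebp1 lies highest at 3.50 and Eif4a2 lowest at -2.24, and the counting intervals are narrow for most genes.

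The 2 genes for the helicase of eIF4F exchanged their order. Eif4a2 (chromosome 16, 23107468 to 23114132) had a level of 799 CPM in freshly isolated cells against 170 CPM after expansion, 4.71-fold lower (4.54 to 4.89). Eif4a1 (chromosome 11, 69666936 to 69672423), the form linked to growing cells, stood at 162 and 247 CPM, 1.52-fold higher (1.46 to 1.59). Per kb, Eif4a2 was 2.90 times Eif4a1 in the freshly isolated library (2.80 to 3.01), whereas Eif4a1 was 2.48 times Eif4a2 in the expanded library (2.37 to 2.58). Their summed CPM was 2.31-fold lower in the expanded library. For Eif4a1, 65.3% of windows were shared with other transcripts, chiefly the pseudogene Eif4a-ps4, against 11.5% for Eif4a2, so that the level of Eif4a1, and with it the order of the 2 genes within a library, is uncertain. Rfc4 overlaps Eif4a2 on the other strand, with 259 and 891 counts, and was higher in the expanded library.

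Among cap-binding genes, Eif4e itself differed most. Eif4e (chromosome 3, 138526191 to 138559696), the cap-binding subunit of eIF4F, had 31.8 CPM against 101 CPM, 3.19-fold higher (2.93 to 3.49). The homologues Eif4e2 (139 and 199 CPM, ratio 1.43) and Eif4e3 (33.3 and 51.7 CPM, 1.55) were nearer to equal. Per kb, Eif4e was 0.237 times Eif4e2 in the freshly isolated library (0.218 to 0.258) and 0.529 times in the expanded library (0.502 to 0.557). Eif4e thus remained below Eif4e2 in both.

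The scaffold genes of eIF4G also went separate ways. Eif4g1, the main scaffold (chromosome 16, 20672727 to 20692883), went from 347 to 817 CPM, 2.36-fold higher (2.29 to 2.42). Eif4g3, a second scaffold of the same kind, stood at 320 and 281 CPM, 1.14-fold lower (1.10 to 1.18). Per kb, Eif4g1 was 2.01 times Eif4g3 in the freshly isolated and 5.39 times in the expanded library. Eif4g2 (DAP5), which lacks the eIF4E-binding region, was the most abundant of the 3 per kb in both libraries, and its level went from 1559 to 2733 CPM (1.75). The helicase cofactors Eif4b (519 and 944 CPM, 1.82) and Eif4h (209 and 422 CPM, 2.02) were both higher. Eif4h fell short of 2-fold under other scalings (lowest log2 fold 0.86).

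**Figure D4:**
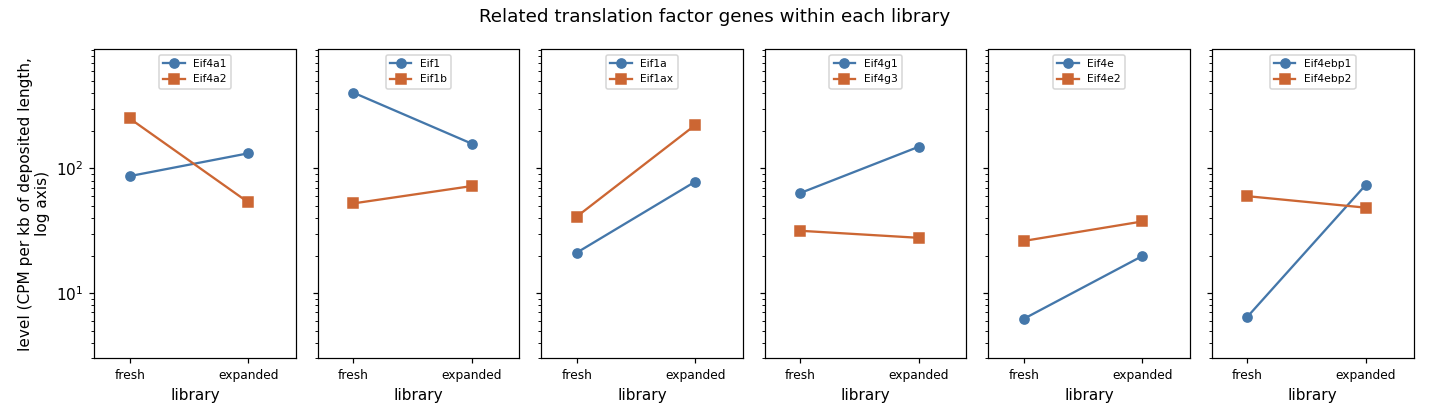
Level per kb of deposited gene length (CPM per kb, log axis) of 6 pairs of related genes in the freshly isolated and the expanded library, 1 library each, with lines joining the values of a gene. The lines cross for Eif4a1 with Eif4a2 and for Eif4ebp1 with Eif4ebp2, and keep their order for the other 4 pairs. The order within a pair depends on the deposited lengths, which can be far shorter than the longest transcript (Eif1ax, 0.919 kb and 5172 bases).

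The repressors of eIF4E, which hold it away from eIF4G until mTORC1 phosphorylates them, differed by gene. Eif4ebp1 (chromosome 8, 27260327 to 27275656) was the member furthest up, from 6.32 to 72.6 CPM, 11.5-fold higher (9.64 to 13.8). Eif4ebp2 was at 107 and 86.4 CPM, 1.24-fold lower (1.16 to 1.32). Per kb, Eif4ebp1 was 0.108 times Eif4ebp2 in the freshly isolated library (0.0900 to 0.128) and 1.53 times in the expanded library (1.43 to 1.64). The summed repressor level per kb of these 2 genes was 10.7 times that of Eif4e in the freshly isolated and 6.17 times in the expanded library. These ratios between genes are uncertain, since they rest on deposited lengths of 0.978 kb (Eif4ebp1) and 1.783 kb (Eif4ebp2). Their longest transcripts have 1997 and 5784 bases. In plain CPM, Eif4ebp1 stayed below Eif4ebp2 in both libraries. Phosphorylation, which sets the activity of these proteins, was not measured.

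Genes listed for the control of eIF4E and eIF4A by mTORC1 and the MNK kinases did not share the direction of most factors. The list mixes activators with inhibitors, so that its median has no single meaning. It also holds Rps6, which is counted among the ribosomal proteins above. Of 14 genes (median -0.26), none was at least 2-fold higher, beside 22.4% of all genes. At least 2-fold lower were 2 (14.3%, beside 25.0%), and 12 lay between (85.7%, beside 52.6%). Those 2 were Deptor, an mTOR-binding inhibitor (9.66 and 1.14 CPM), and Pdcd4, which binds and inhibits eIF4A (666 and 117 CPM). By any amount, 3 were higher and 11 lower. Just short of 2-fold lower were Mknk2 at a log2 fold of -0.99, Tsc1 at -0.93, Rps6kb2 at -0.91 and Mknk1 at -0.88. The count of lower genes thus depends on the scaling and was not made under others. Furthest up were the mTORC1 activator Rheb (69.0 and 116 CPM) and the kinase gene Mtor (52.9 and 67.5 CPM). Of 10 genes for poly(A)-binding proteins, their partners and RNA-binding relatives, 3 were higher and 2 lower by 2-fold or more (median 0.50), shares near those of all genes (22.4% and 25.0%), with Larp1, which binds oligopyrimidine tracts (299.8 and 780 CPM), and Larp4 (48.9 and 125 CPM) furthest up. Lsm14b (81.7 and 34.1 CPM) and Paip2, an inhibitor of poly(A)-binding protein (209 and 101 CPM), were furthest down.

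Of proteins with eIF4 names but other roles, Eif4a3, the helicase of the exon junction complex, stood at 111 and 156 CPM (1.41), and Eif4enif1, which carries eIF4E into the nucleus and to processing bodies, at 102 and 114 CPM (1.12). Of the factors for subunit joining, Eif5b was at 206 and 343 CPM (1.66). Eif6, which keeps the large subunit apart until it is mature, was at 63.0 and 130 CPM (2.06), and scaling by total count put its log2 fold at 0.88.

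Eif5a was among the members furthest up by level as well as fold. It encodes a form of eIF5A, which helps the ribosome through stretches such as consecutive prolines. The eIF5A forms are the only proteins known to carry hypusine, a modified lysine made from spermidine. Eif5a (chromosome 11, 69916712 to 69921958) went from 363 to 1154 CPM, 3.18-fold higher (3.10 to 3.26). Its paralogue Eif5a2 was at 14.4 and 20.7 CPM (1.44). Of the 8 measured genes of hypusine and diphthamide synthesis, none was 2-fold apart (median 0.13), where 52.6% of all genes lay within 2-fold. Dohh, which completes hypusine, stood at 18.7 and 28.9 CPM, Dph6 at 28.4 and 37.5 CPM, Dph5 at 34.9 and 30.9 CPM, and Dph7 at 18.9 and 17.1 CPM.

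The elongation factors held the highest levels of the family and moderate folds. Eef1a1, the GTPase that delivers aminoacyl-tRNA (chromosome 9, 78478454 to 78481724), had 3762 CPM against 5555 CPM, 1.48-fold higher (1.46 to 1.49). Eef2, the translocase (chromosome 10, 81176631 to 81182509), went from 3211 to 5910 CPM, 1.84-fold higher (1.82 to 1.86). By counts they ranked 7 and 9 among all genes of the freshly isolated library and 6 and 5 among those of the expanded library. Per kb, Eef1a1 was 2.04 times Eef2 in the freshly isolated and 1.63 times in the expanded library. Many processed pseudogenes share sequence with Eef1a1, and 59.2% of its windows also occurred in other transcripts, against 7.86% for Eef2.

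The exchange factor of eEF1A, which reloads it with GTP, has 3 subunits. Eef1b2 was at 654 and 910 CPM (909.6 before rounding, ratio 1.39), Eef1d at 148 and 250 CPM (249.6, ratio 1.69) and Eef1g at 118 and 240 CPM (240.2, ratio 2.04). Eef1g, with 64.3% of windows shared, lost its 2-fold call under other scalings (lowest log2 fold 0.87). Eef1e1, a scaffold of the multi-synthetase complex despite its name, stood at 23.4 and 94.8 CPM, 4.06-fold higher (3.68 to 4.48), just past 4-fold.

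Of the enzymes that modify elongation factors, Eef2k, the kinase that phosphorylates and inhibits eEF2, was at 39.0 and 56.5 CPM, 1.45-fold higher (1.33 to 1.59). Per kb, Eef2 exceeded its kinase 178-fold in the freshly isolated library and 226-fold in the expanded library. Eef1akmt1, a lysine methyltransferase of eEF1A, was at 9.52 and 28.4 CPM, 2.98-fold higher (2.54 to 3.51). Eef2kmt, which methylates eEF2, was at 20.6 and 19.1 CPM, a ratio of 0.927 (0.808 to 1.06).

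Of 9 genes of termination and ribosome recycling (median 1.39), 6 (66.7%) were higher and 1 (11.1%) lower by 2-fold or more, beside 22.4% and 25.0% of all genes. Gspt2, a paralogue of the release factor eRF3, had 5 counts in the freshly isolated library (0.232 CPM) and 6.52 CPM in the expanded library, and Abce1, the recycling ATPase, stood at 148 and 512 CPM. Mcts2 was lower (6.32 and 0.951 CPM), and Hbs1l, next lowest, stood at 81.4 and 114 CPM. Of 10 mitochondrial translation factors (median 0.53), 3 (30%) were higher by 2-fold or more and none lower by as much, beside 22.4% and 25.0% of all genes. Mtrf1 (3.58 and 12.6 CPM) and Mrrf (6.92 and 19.9 CPM) were at the top and Guf1 (38.0 and 26.1 CPM) and Mtif2 (56.1 and 58.7 CPM) at the bottom. None of 5 genes of selenocysteine incorporation and other elongation GTPases was 2-fold apart (median -0.55), where 52.6% of all genes lay within 2-fold. Gtpbp2 (196 and 98.6 CPM) and the selenocysteine elongation factor Eefsec (35.2 and 18.6 CPM) were its lowest members, and above them stood Secisbp2 (63.6 and 47.3 CPM) and Hbs1l. Gtpbp2 (log2 fold -0.99, ratio 0.478 to 0.532) and Eefsec (-0.92, 0.466 to 0.597) lay just short of 2-fold lower. Their place within 2-fold thus depends on the scaling.

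Small nucleolar RNAs (snoRNAs) are cut from introns of several of these genes, and their rows went down whichever way the host gene went. In the table, 6 snoRNA rows lay inside 5 member genes on the same strand. Within Eif4a2, Snora81 had 192 and 13 counts and Snord2 had 167 and 12. Inside genes that were higher in the expanded library, Snora28 in Eif5 had 178 and 20 counts, Snord37 in Eef2 had 62 and 1, Snora41 in Eef1b2 had 53 and 6, and Snord66 in Eif4g1 had 5 and 0. Of 102 snoRNA rows in the whole table, 32 averaged 1 CPM or more, among them the hosted rows except Snord66. Of these 32, 30 were lower after expansion by 2-fold or more and none higher by that much (median -2.91). Of all genes compared, 25.0% were lower and 22.4% higher by as much. A row can pass the average through 1 library alone, such as Snord37 (2.88 and 0.0476 CPM). The count of lower rows thus leans on the filter, and the rows under it were not compared.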

How the data were processed

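RNA-seq counts of 2 libraries (1 per group) were used. The deposited values are unnormalised counts of reads by gene, beside which the authors gave each gene's span and its length in kb. The submitters' processing notes name STAR 2.6.0, edgeR 3.28.1, HTSeq 0.6.0, bcl2fastq 2.18.0.12 and, as builds, mm10 and GRCm38. What each tool did, the annotation and whether strand was used are not given in the sources used here. Columns were matched to libraries by name.

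Libraries were scaled with TMM factors (1.06 freshly isolated, 0.947 expanded) in edgeR 4.0.16 under R 4.3.3. Log2 folds carry a prior count of 2. The 11715 genes averaging 1 CPM or more were compared and counted by fold (2-fold, 4-fold). Ratios have exact conditional binomial (Clopper-Pearson) 95% intervals from scipy 1.17.1, and shares of counts exact binomial ones. With 1 library per group no p-value was computed. The calculation was tested on simulated data.

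Every gene matching the symbol rule is accounted for. From each other gene list the 2 genes furthest up and 2 furthest down are named, marker lists are given by their sums, and any others were chosen after their values were seen, as were the pairs set side by side. The members and lists were chosen with earlier results of these data known. Shared windows of 50 bases came from GENCODE M21 transcripts. Levels per kb rest on the deposited length, which for some genes differs widely from the longest of these transcripts, so that ratios between genes are uncertain. Promoter windows came from RefSeq (GRCm38.p6). Alternatives were 4 other scalings (upper quartile, DESeq2 1.42.0 size factors, total count, and total count leaving out each library's 50 most abundant genes), prior counts of 0.5 or 5, no filter, and a minimum mean of 5 CPM.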

Additional observations from a re-analysis of the deposited data

How the results depend on the processing

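Of the 24 genes at least 2-fold higher, 18 were so under each of the 4 other scalings and 2 other prior counts, and the 6 that were not were Eif4h, Eif2ak2, Eef1g, Eif6, Eif3d and Eif3l. The count was 18 by total count, 22 with DESeq2 size factors, 19 by upper quartile and 18 without the most abundant genes. Eif4a2 and Eif1 were at least 2-fold lower under every scaling and prior count tried, and Eif4ebp3 joined them with no filter. Scaling by total count moved the median of all genes from 0.04 to -0.12 and that of the factor genes from 0.81 to 0.65, and without the most abundant genes the latter was 0.73. The gap between the factor median and the median of all genes was 0.77, or 0.78 with DESeq2 size factors, under these scalings. A change of scaling moves all genes by nearly the same amount, so that this gap could hardly change. It was 0.93 with no filter and 0.71 at a minimum mean of 5 CPM. The ratio of summed CPM was 1.65 and became 1.48 by total count, 1.62 with DESeq2 size factors, 1.57 by upper quartile and 1.56 without the most abundant genes. With no filter the median of the Eif4ebp genes turned from 1.60 to -0.31, since Eif4ebp3 entered as another gene. Eif2ak1 changed sign under total-count scaling. Counts by fold within the other gene lists were made under TMM scaling only. No paired analysis was possible because each group holds 1 library, and for the same reason no library could be left out. Depth limited the low members only.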
